A study of Homo sapiens with 28 samples.

Results

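NCI-H596 (H596 below) is an established human non-small-cell lung cancer line, and the data described here show its RNA after 24 h with 100 nM compound B. The design text of the series presents compound B as an inhibitor of RUVBL1, and the compound is known here only by that name. The members are 4 of the 28 libraries of the series, namely 2 libraries of H596 cells given compound B and 2 of H596 cells left untreated. The cells carry no labelled alteration (genotype WT), they are all of this 1 line, and no vehicle is named for the untreated dishes. A further 2 H596 libraries, given 100 nM compound C for 24 h, served as a background. The values are FPKM, that is fragment counts scaled by transcript length and by the number of mapped fragments. Of 13481 genes in the table, 11714 had a mean of at least 1 FPKM over the 6 H596 libraries and were tested. A log2 change below is the difference of group means of log2(FPKM + 1), with the replicate number as a block. Because of the added 1, the change of genes with low FPKM comes out too small. A gene is said to have passed, or to have risen or fallen, when its adjusted p in limma was under 0.05.

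RUVBL1 and RUVBL2 are AAA+ ATPases that form mixed rings. With RPAP3 and PIH1D1 they make up the R2TP chaperone, and with a set of prefoldin-like proteins the larger PAQosome. This machinery is known for helping to assemble RNA polymerases, box C/D snoRNPs, the U5 snRNP and the PIKK kinases such as mTOR and ATR, and the same pair of ATPases also sits in the INO80, SRCAP and TIP60 chromatin complexes. The account below therefore starts with the chaperone and its clients and then takes up chromatin, cell division, RNA processing, growth and stress genes.

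The labels give the histology as adenocarcinoma, and lineage markers of H596 went partly against that label. The lung adenocarcinoma factor NKX2-1 ranged from 0.330 to 1.04 FPKM over the 6 libraries and SFTA3 from 0 to 0.183 FPKM, while 6 of the 11 markers of that list, surfactant genes and NAPSA among them, are not among the rows of the table, and neither are DSC3 and PKP1 of the 18 squamous markers. Every row of the table exceeds 1 FPKM in at least 1 of its 12 libraries. Squamous and basal genes were abundant, with TP63 from 61.1 to 88.3 FPKM, KRT5 from 880.1 to 1452 FPKM and S100A2 from 1193 to 1908 FPKM. On the other side, the secretory cell gene SCGB1A1 was at 14.7 to 104 FPKM and FOXA1 at 23.8 to 49.1 FPKM, and the simple epithelial keratin KRT7 was abundant. Vimentin (VIM) did not exceed 0.0721 FPKM. Of 18 fibroblast, endothelial and immune markers, 4 are in the table, with a summed level of 26.1 to 33.0 FPKM in the untreated libraries, 24.1 to 34.9 FPKM with compound C and 26.8 to 39.7 FPKM with compound B; CD68 and CD74 made up most of it, and the defining genes PTPRC, CD3E, PECAM1 and COL1A2 are not among the rows. CD74 rose by 0.42 with compound B, and its part in any other result was not tested.

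The summed FPKM per library lay between 520093 and 618824, and 199 to 302 genes were listed at 0. Read depth is unknown, since no counts were given. Libraries with the same number resembled each other. The difference between replicates 1 and 2 across genes correlated with r of 0.867 between untreated and compound C, 0.861 between untreated and compound B, and 0.801 between the compounds. Nothing in the labels says that the replicates were separate cultures. The p-values below reflect only the spread left after the shift shared by same-numbered libraries is taken out. That remaining spread may be technical.

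Compound B changed 1810 of 11714 genes in H596, or 15.5%, with 797 higher (6.8%) and 1013 lower (8.65%). Most changes were small. The median absolute log2 change of the called genes was 0.48, 1002 of them stayed under 0.5, and 42 higher and 13 lower genes reached 1. For 1088 of the 1810, both compound B libraries lay beyond all 4 untreated and compound C libraries. Over all genes tested, 9.02% had both compound B libraries above those 4 and 11.2% below. Compound C, also 100 nM for 24 h, gave 0 calls (0%) in limma, with 273 genes at an unadjusted p under 0.05, against 3673 for compound B. That 0 became 113 when only the 4 compound C and untreated libraries were fitted, and 11 to 116 when any of the 6 libraries was left out. The count for compound B depends on the replicate block and on single libraries: it was 0 without the block, 799 without untreated replicate 1, 328 without untreated replicate 2 and 3938 without compound B replicate 1. Through all 13 fits that kept the block and the filter on low values, 6 of them leaving out a library, 188 genes stayed called, of which 128 were up and 60 down.

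**Figure D1:**
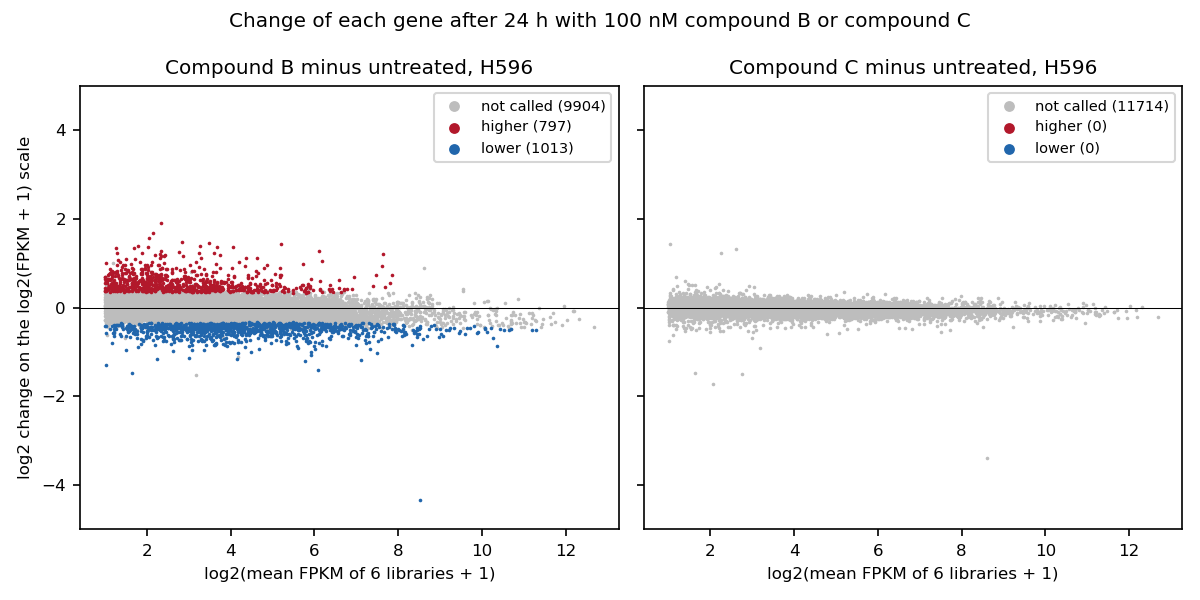
Each point is 1 of 11714 genes in H596, with the log2 of its mean FPKM plus 1 over 6 libraries on the x axis and its log2 change against untreated cells on the y axis, for compound B (left) and compound C (right). Red genes passed as higher and blue genes as lower in limma: 797 and 1013 with compound B and 0 with compound C, where most points lie close to 0.

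RUVBL1 itself fell a little. RUVBL1 was at 119 and 176 FPKM in the untreated libraries, 111 and 153 FPKM with compound C and 93.0 and 117 FPKM with compound B, a log2 change of -0.47 (SE 0.11, adjusted p = 0.0183). In each replicate number the compound B library was the lowest of the 3, but the groups overlap because replicate 2 was higher throughout, and the call is lost without untreated replicate 2. RUVBL2 was at 117 and 181 FPKM untreated and 114 and 133 FPKM with compound B, and its log2 change of -0.23 did not pass (adjusted p = 0.236). Of 11 genes of R2TP and the PAQosome, 1 rose and 1 fell, with a median of -0.20 beside -0.04 for all genes. Each is 9.09% of the list, near the 6.8% higher and 8.65% lower of all genes. The riser was the prefoldin-like subunit gene PDRG1, at 0.45 (SE 0.11, adjusted p = 0.0221), and RPAP3 and PIH1D1 were at 0.15 and -0.21 without passing. The count was 7 without compound B replicate 1, 1 without untreated replicate 1 and 0 without untreated replicate 2.

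Among the lists of client complexes, 7.69% of the PIKK genes and 37.5% of the snoRNP genes fell, beside 8.65% of all genes. The PIKK share is thus under that of all genes. Among 13 genes of the PIKK kinases and their TTT chaperone, 0 rose and 1 fell (median 0.01): the mTOR partner gene MLST8, at -0.44 (SE 0.10, adjusted p = 0.0193). That count of 1 was 5 without compound B replicate 1, 2 without compound B replicate 2, 0 without untreated replicate 1 and 0 without untreated replicate 2. Among 12 genes of the U5 snRNP and its cofactors 0 passed in limma, and 0 were at an unadjusted p under 0.05 (median -0.13; the smallest adjusted p was 0.223, for TSSC4). That 0 became 2 without compound B replicate 1. Of 16 snoRNP proteins and assembly factors 6 fell and 1 rose, with a median of -0.26. RRP9, a protein of the U3 snoRNP, was at 15.1 and 20.9 FPKM untreated, 13.0 and 15.1 FPKM with compound C and 11.5 and 11.5 FPKM with compound B, a log2 change of -0.59 (SE 0.12, adjusted p = 0.0101); the compound B libraries were the lowest. The assembly factor gene ZNHIT3 rose by 0.45 (SE 0.11, adjusted p = 0.0229). With compound C the same 16 genes had a median of -0.13, and in compound B against compound C 1 was higher and 0 lower. The snoRNP count of 7 was 3 without untreated replicate 1 and 0 without untreated replicate 2, and 4 with quantile normalization.

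Of 29 genes of chromatin remodelling and acetyltransferase complexes, 3 fell and 0 rose (median -0.18). The share that fell, 10.3%, is close to the 8.65% of all genes. These 3 were ING3 and the acetyltransferase KAT5, both subunits of TIP60, and ACTR5 of INO80. ING3 was at 15.1 and 19.5 FPKM in the untreated libraries, 15.2 and 17.6 FPKM with compound C and 8.28 and 9.50 FPKM with compound B, a log2 change of -0.88 (SE 0.11, adjusted p = 0.000777). KAT5 was at 21.5 and 24.1 FPKM untreated and 15.1 and 14.8 FPKM with compound B, a log2 change of -0.58 (SE 0.11, adjusted p = 0.00645). Both genes had their compound B libraries below the other 4, and only ING3 of the 3 passed in all 13 fits. The count of 3 was 12 without compound B replicate 1, 6 without compound B replicate 2 and 1 without untreated replicate 2. The 12 subunit genes of RNA polymerase II were looked at after values had been seen: 1 rose and 0 fell (median 0.07). The share that rose, 8.33%, is near the 6.8% of all genes. POLR2A was at 61.6 and 31.0 FPKM in the untreated libraries, 59.9 and 34.1 FPKM with compound C and 141 and 82.6 FPKM with compound B, so that both compound B libraries were above the other 4. Its log2 change, for the catalytic subunit of the enzyme, was 1.28 (SE 0.11, adjusted p = 0.000203), with 1.18 and 1.38 within replicates 1 and 2, and 0.05 (95% interval -0.19 to 0.28) with compound C.

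The highest changes named by rule were led by 4 histone genes, 2 antisense RNAs and genes of varied function. The rule took only genes whose 2 compound B libraries lay beyond all 4 untreated and compound C libraries, so that separation is no result. HIST4H4 was at 1.13 and 1.38 FPKM in the untreated libraries, 0.914 and 2.68 FPKM with compound C and 3.41 and 15.0 FPKM with compound B. Both compound B libraries were above the other 4 but differed strongly from each other, and the log2 change was 1.90 (SE 0.27, adjusted p = 0.00181). WDR78, which encodes a dynein chain of cilia, was at 1.15 and 1.59 FPKM untreated, 1.21 and 1.86 FPKM with compound C and 4.08 and 8.80 FPKM with compound B, a log2 change of 1.58 (SE 0.15, adjusted p = 0.000278). SERPINI1, which encodes the protease inhibitor neuroserpin, was at 1.54 and 1.67 FPKM untreated and 4.96 and 6.48 FPKM with compound B, a log2 change of 1.36 (SE 0.12, adjusted p = 0.000203). In WDR78 and SERPINI1 as well, the compound B libraries stood above all others, as the rule requires. The antisense transcripts DLGAP1-AS2 and BDNF-AS rose by 1.46 and 1.35, with BDNF-AS from 0.708 and 0.398 FPKM to 3.34 and 2.60 FPKM. The library kit keeps strand, but the sources used here do not say whether counting used strand, so reads of an antisense gene and its partner may be mixed. SPATA17 rose by 1.39 (SE 0.15, adjusted p = 0.000431) and HHLA3 by 1.44. ATF3 was at 10.6 and 8.85 FPKM in the untreated libraries, 12.7 and 9.22 FPKM with compound C and 26.2 and 27.0 FPKM with compound B; this stress-induced transcription factor gene rose by 1.37 (SE 0.12, adjusted p = 0.000212) and its groups did not overlap. TP53INP2, a regulator of autophagy, was at 4.57 and 2.26 FPKM untreated and 14.3 and 8.19 FPKM with compound B, with replicate 1 above replicate 2 in every group.

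The lowest changes named by rule included DDX39A, DDX39B and SNRPA. For these genes too, the rule required compound B libraries beyond all 4 untreated and compound C libraries. DDX39A was at 57.3 and 119.6 FPKM in the untreated libraries, 52.8 and 111 FPKM with compound C and 26.1 and 36.1 FPKM with compound B. This RNA helicase of mRNA export fell by 1.40 (SE 0.14, adjusted p = 0.000356), and although replicate 2 was well above replicate 1 in the other groups, both compound B libraries lay below all 4. Its close relative DDX39B was at 190.5 and 193 FPKM untreated, 181 and 185 FPKM with compound C and 108 and 93.5 FPKM with compound B, a log2 change of -0.92 (SE 0.11, adjusted p = 0.000847). SNRPA, a protein of the U1 snRNP, was at 75.3 and 56.2 FPKM untreated and 36.5 and 20.5 FPKM with compound B, a log2 change of -1.22 (SE 0.12, adjusted p = 0.000285). The groups did not overlap in either gene. RPP40, a subunit of RNase P, fell to 43.6 and 30.1 FPKM from 75.1 and 80.2 FPKM, a log2 change of -1.08 (SE 0.14, adjusted p = 0.00114). HNRNPDL was at -1.01, RPL22L1, a paralog of a ribosomal protein, at -0.99, and the snoRNA host gene SNHG3 at -0.95, and all 3 passed. HNRNPA1P10, a pseudogene whose reads can come from HNRNPA1, was at -1.19, and HNRNPA1 itself fell by 0.86 (SE 0.12, adjusted p = 0.00135). TFAP4, a transcription factor downstream of MYC, was at 10.7 and 9.11 FPKM untreated, 8.26 and 7.71 FPKM with compound C and 5.73 and 3.61 FPKM with compound B, and fell by 0.96 (SE 0.13, adjusted p = 0.00114). STEAP1, a membrane protein of the metalloreductase family, was at 2.60 and 2.98 FPKM untreated, 1.803 and 1.78 FPKM with compound C and 0.860 and 1.05 FPKM with compound B. In STEAP1 both compound C libraries lay between the other groups, with -0.44 (95% interval -0.68 to -0.20) for compound C and -0.96 (SE 0.11, adjusted p = 0.000587) for compound B. SPAG7 fell by 0.93 (SE 0.14, adjusted p = 0.00192).

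**Figure D2:**
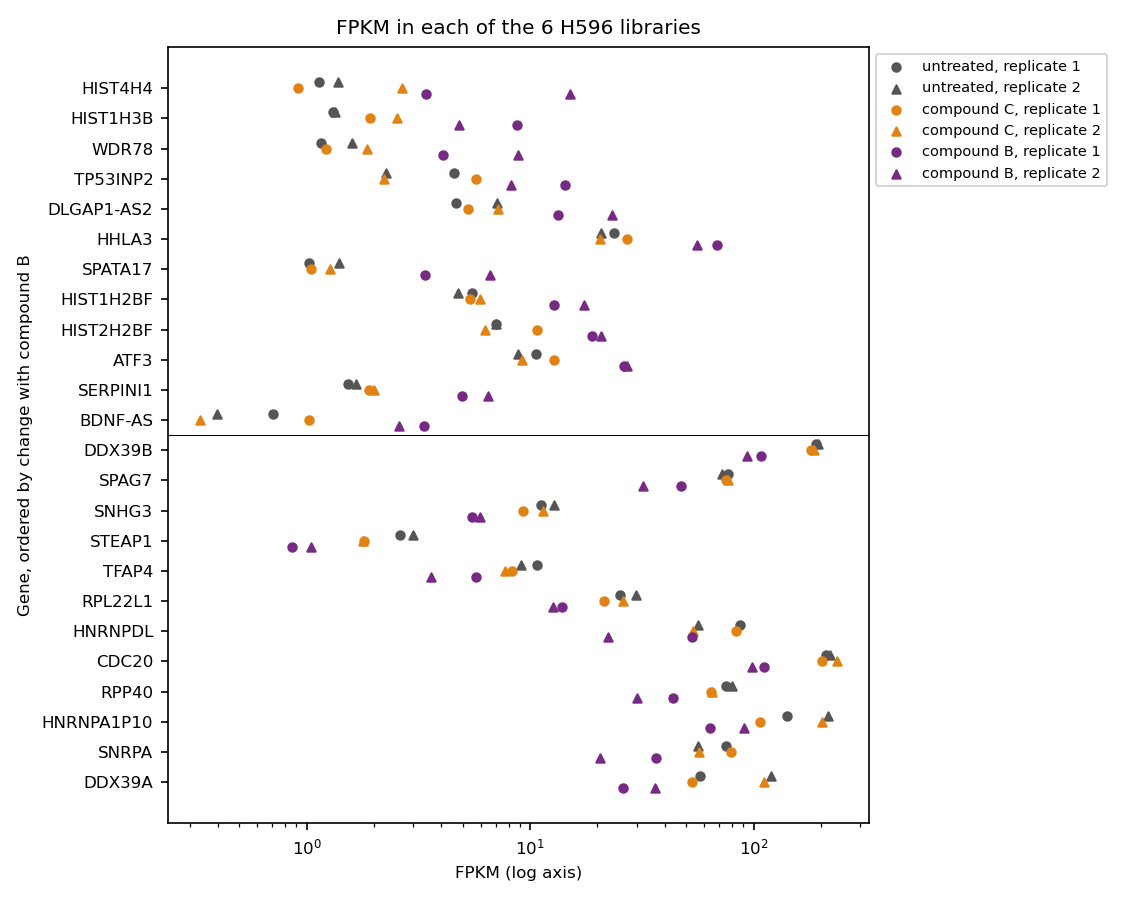
FPKM on a log axis in each of the 6 H596 libraries for the 12 highest and 12 lowest genes named by rule, with circles for replicate 1 and triangles for replicate 2. The compound B points lie outside the 4 untreated and compound C points in each gene, as the rule requires, while HIST4H4 spreads from 3.41 to 15.0 FPKM and DDX39A from 26.1 to 36.1 FPKM with compound B.

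Replication-dependent histone genes had the highest median of the 35 lists. These genes supply the core and linker histones packed onto new DNA, and their messages normally end in a stem-loop and lack a poly(A) tail, so a library made from poly(A) RNA reads only part of them. Of 50 listed genes 38 are in the table and 29 were tested. Of these 15 rose and 3 fell, with a median of 0.58 beside -0.04 for all genes. The shares are 51.7% and 10.3%, beside 6.8% and 8.65% of all genes. In a fit of all 12 libraries with a shared block, 9 were higher and 1 lower. HIST1H2BD was at 159.5 and 113 FPKM in the untreated libraries, 146 and 131 FPKM with compound C and 372 and 258 FPKM with compound B. The compound B libraries of this abundant H2B gene were the highest, and it rose by 1.20 (SE 0.12, adjusted p = 0.000356). HIST1H2BC was at 44.7 and 53.6 FPKM untreated, 58.4 and 64.0 FPKM with compound C and 93.3 and 113 FPKM with compound B, a log2 change of 1.06 (SE 0.10, adjusted p = 0.000302). HIST1H2BF went from 5.47 and 4.75 FPKM to 12.7 and 17.3 FPKM and HIST2H2BF from 7.03 and 7.04 FPKM to 18.9 and 20.8 FPKM. The H2A gene HIST1H2AG rose by 1.12 (SE 0.11, adjusted p = 0.000278) and the H3 gene HIST1H3B by 1.69 (SE 0.19, adjusted p = 0.000573). The 3 that fell were HIST2H2AC (-1.16), HIST1H1C (-0.54) and HIST1H2BL (-0.48). Summed over the 29 genes, the level was 1189.8 and 1429.7 FPKM untreated and 1602 and 1512 FPKM with compound B, beside 1221 and 1525 FPKM with compound C. These sums overlap in replicate 2. Histone genes are near copies of each other and can share reads, so the value of a single gene is uncertain. No left-out library moved this count of calls by over 1.5 times, and 9 of the 18 called genes passed in all 13 fits.

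H2B promoters are known for an octamer element, ATTTGCAT, bound by OCT1 with its coactivator. It was searched on both strands in windows that begin 250 bases before each start listed by RefSeq (GRCh38.p14) and run a short way past it. Of the 29 histone genes 28 matched an entry. The sequences printed below hold only the 250 bases before the start. The octamer was in 5 of 7 H2B genes that rose (71.4%), in 3 of 4 that did not (75.0%) and in 2.19% of 27305 genes with a promoter. A match describes the letters only. The pair of H2B promoters below was picked, from the H2B genes that passed in all 13 fits, because both hold the octamer; 2 of the 7 that rose lack it. Capitals mark the octamer.
HIST1H2BF, now H2BC7 (chr6:26199266-26199515, plus strand): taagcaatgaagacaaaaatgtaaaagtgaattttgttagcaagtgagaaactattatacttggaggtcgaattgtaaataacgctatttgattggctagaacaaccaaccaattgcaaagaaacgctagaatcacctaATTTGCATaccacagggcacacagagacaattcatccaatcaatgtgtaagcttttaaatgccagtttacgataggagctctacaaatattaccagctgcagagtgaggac
HIST1H2BC, now H2BC4 (chr6:26123927-26124176, minus strand): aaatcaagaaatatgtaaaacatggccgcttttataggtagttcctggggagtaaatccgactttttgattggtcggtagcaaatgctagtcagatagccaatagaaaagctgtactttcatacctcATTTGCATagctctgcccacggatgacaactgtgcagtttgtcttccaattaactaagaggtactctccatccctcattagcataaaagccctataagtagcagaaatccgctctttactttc

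Of 22 genes of histone supply and variants, 2 rose and 1 fell, with a median of -0.02. These are 9.09% and 4.55%, beside 6.8% and 8.65% of all genes. H1F0 was at 121 and 172 FPKM in the untreated libraries, 124 and 161 FPKM with compound C and 216 and 267 FPKM with compound B; the replacement linker histone rose by 0.73 (SE 0.11, adjusted p = 0.00228) with no overlap. The chaperone gene ASF1B rose by 0.51 (SE 0.11, adjusted p = 0.0106). The fall was H3F3A, at 371 and 574 FPKM untreated and 0.159 and 448 FPKM with compound B. The size of that log2 change, -4.34 (SE 1.29, adjusted p = 0.0429), rests on the single library at 0.159 FPKM. With 1 library left out, the change of H3F3A ran from -8.06 to -0.62. This gene has processed copies that can take its reads. The count of 3 was 7 without compound B replicate 1.

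Mitosis genes that passed fell. Of 55 tested, 24 fell and 0 rose, with a median of -0.33, and 51 of the 55 values were negative. CDC20 was at 211 and 219 FPKM in the untreated libraries, 203 and 235 FPKM with compound C and 111 and 98.7 FPKM with compound B. The activator of the anaphase-promoting complex thus had both compound B libraries below the other 4, and it fell by 1.03 (SE 0.12, adjusted p = 0.000659). PLK1 was at 154 and 146 FPKM in the untreated libraries, 145 and 140.5 FPKM with compound C and 91.3 and 74.6 FPKM with compound B; this mitotic kinase fell by 0.85 (SE 0.11, adjusted p = 0.00114). KIF20A, a kinesin of cytokinesis, was at 84.7 and 90.0 FPKM untreated and 45.5 and 49.5 FPKM with compound B, a log2 change of -0.87 (SE 0.10, adjusted p = 0.000703), and the condensin subunit NCAPH fell by 0.68 (SE 0.10, adjusted p = 0.00226). The cyclins CCNB1 (-0.72) and CCNA2 (-0.58), the kinase AURKA (-0.64) and topoisomerase TOP2A (-0.48) fell as well. Members that did not pass included CDK1 at -0.22, AURKB at -0.22 and HMMR at 0.26. The median was -0.33 within replicate 1 and -0.32 within replicate 2, and 0.02 with compound C. The count of 24 was 11 without untreated replicate 1 and 6 without untreated replicate 2, with quantile normalization 14 fell and 1 rose (median -0.22), and 5 of the 24, CDC20, KIF20A, PLK1 and NCAPH among them, passed in all 13 fits.

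Late cell cycle promoters are known for a CHR element, TTTGAA or TTTAAA, and for CCAAT boxes, which were searched on both strands in the same windows. Of the 55 genes 46 matched an entry. TTTGAA was in 14 of 20 that fell (70.0%) and in 18 of 26 that did not pass (69.2%), against 18.2% of all 27305 genes. CCAAT was in 16 of 20 (80.0%) and 19 of 26 (73.1%), against 39.7%. TTTAAA was in 8 of 20 (40.0%) and 7 of 26 (26.9%), against 14.5%. The differences between members that did and did not fall were not tested. The motifs were chosen with results in view. Neither CCAAT nor TTTGAA was particular to mitosis genes. Among histone genes that rose, CCAAT was in 14 of 15 (93.3%) and TTTGAA in 7 of 15 (46.7%). Among ribosome biogenesis genes that fell, CCAAT was in 8 of 23 (34.8%) and TTTGAA in 7 of 23 (30.4%). The promoters below belong to the 3 mitosis genes with the smallest adjusted p. Capitals mark TTTGAA as well as TTTAAA and CCAAT on either strand.
CDC20 (chr1:43358731-43358980, plus strand): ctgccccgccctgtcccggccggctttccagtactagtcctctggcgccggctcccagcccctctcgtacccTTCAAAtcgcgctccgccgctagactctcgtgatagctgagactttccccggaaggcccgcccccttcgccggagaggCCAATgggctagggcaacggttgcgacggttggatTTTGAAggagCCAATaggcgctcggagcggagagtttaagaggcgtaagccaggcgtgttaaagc
PLK1 (chr16:23678639-23678888, plus strand): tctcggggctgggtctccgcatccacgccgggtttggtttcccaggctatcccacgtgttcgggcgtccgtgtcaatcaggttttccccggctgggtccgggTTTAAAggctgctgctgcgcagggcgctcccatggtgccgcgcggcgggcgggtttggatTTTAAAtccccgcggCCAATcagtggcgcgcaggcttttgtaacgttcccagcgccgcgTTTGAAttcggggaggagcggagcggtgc
KIF20A (chr5:138178862-138179111, plus strand): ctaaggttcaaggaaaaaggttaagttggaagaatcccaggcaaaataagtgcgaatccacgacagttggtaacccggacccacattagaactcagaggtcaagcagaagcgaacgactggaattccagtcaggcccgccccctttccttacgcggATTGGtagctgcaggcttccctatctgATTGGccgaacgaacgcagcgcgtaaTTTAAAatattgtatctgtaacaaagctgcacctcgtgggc

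Fewer genes of the rest of the cell cycle passed. Of 48 DNA replication genes 4 fell and 1 rose (median -0.08, and 0.02 with quantile normalization). GINS1, a subunit of the replicative helicase, was at 34.8 and 40.4 FPKM untreated, 38.1 and 41.1 FPKM with compound C and 20.7 and 23.4 FPKM with compound B, and fell by 0.74 (SE 0.10, adjusted p = 0.00152) without overlap. POLD2 (-0.50), DBF4 (-0.46) and MCM5 (-0.37) fell, and GINS4 rose by 0.38, while MCM2 and PCNA were at -0.08 and 0.13 and did not pass. The replication shares, 8.33% lower and 2.08% higher, are near or under those of all genes (8.65% and 6.8%). Of 33 recombination and Fanconi genes 2 fell, the checkpoint kinase CHEK2 (-0.62) and NBN (-0.43), and 1 rose, BRCA1 (0.48), which is 6.06% and 3.03%, under the shares of all genes. Of 23 genes of G1 cyclins, CDKs and E2F factors 2 fell, E2F4 (-0.52) and CCND2 (-0.45), or 8.7%, near the 8.65% of all genes. The replication count of 5 was 13 without compound B replicate 1, 10 without compound B replicate 2, 2 without untreated replicate 1 and 1 without untreated replicate 2. The recombination count of 3 was 7 without compound B replicate 1 and 0 without untreated replicate 2, and the G1 count of 2 was 10 without compound B replicate 1, 6 without compound B replicate 2, 4 without compound C replicate 1, 4 without compound C replicate 2, 1 without untreated replicate 1 and 0 without untreated replicate 2.

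Of 50 genes of mRNA export and splicing 22 fell and 3 rose, with a median of -0.36. These are 44.0% and 6.0%, beside 8.65% and 6.8% of all genes, so the share that rose is under that of all genes. Besides the helicases and SNRPA, the hnRNP genes HNRNPA1, HNRNPH3, HNRNPR, HNRNPL and HNRNPD fell, with log2 changes from -0.86 to -0.55, the export adaptor ALYREF was at -0.54 and the splicing factor gene TRA2B at -0.66. The 3 that rose were SNRPA1, TRA2A and the kinase gene CLK1. SNRPA1 was at 108 and 202 FPKM in the untreated libraries, 99.2 and 170.1 FPKM with compound C and 239 and 341 FPKM with compound B. This protein of the U2 snRNP had both compound B libraries above the other 4 and rose by 0.95 (SE 0.12, adjusted p = 0.00105), opposite to its U1 namesake SNRPA. TRA2A rose by 0.42 and its paralog TRA2B fell. The count of 25 was 8 without untreated replicate 2, with quantile normalization 15 fell and 3 rose (median -0.21), and 6 of the 25 passed in all 13 fits.

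Growth genes were lower as well. All 43 genes of ribosome biogenesis had a negative value, 26 fell and 0 rose, and the median of -0.47 was the lowest of the lists in the plot of gene lists. NPM3 was at 37.5 and 60.5 FPKM in the untreated libraries, 38.0 and 54.1 FPKM with compound C and 27.0 and 26.9 FPKM with compound B; this nucleoplasmin-family gene fell by 0.80 (SE 0.15, adjusted p = 0.00593). WDR3, a factor of the small subunit processome, fell by 0.63 (SE 0.10, adjusted p = 0.00369), PPAN by 0.75 (SE 0.14, adjusted p = 0.00573) and RRS1 by 0.76 (SE 0.14, adjusted p = 0.00651). In these 4 genes the compound B libraries lay below all others. PPAN can share reads with a readthrough transcript, so its value is uncertain. With compound C the median was -0.16, and in compound B against compound C 6 of the 43 were lower. The count of 26 was 0 without untreated replicate 2, and 0 of the 26 passed in all 13 fits. Summed over the 43 genes, untreated replicate 2 was at 5251 FPKM and replicate 1 at 3334 FPKM, with 3143 and 4196 FPKM for compound C and 2598 and 3371 FPKM for compound B. Within each replicate number the compound B sum was the lowest. The sum over all 11714 genes tested had the same order, so the order is not particular to this list. Those sums were 578423 and 618257 FPKM untreated, 569244 and 570586 FPKM with compound C and 550718 and 519346 FPKM with compound B.

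Of 17 genes of the MYC network and its targets 6 fell and 0 rose (median -0.32). They included LDHA, the lactate dehydrogenase, which went from 544 and 615 FPKM to 362 and 370.1 FPKM, a log2 change of -0.66 (SE 0.12, adjusted p = 0.00573), NME1 (-0.68) and the spermidine synthase gene SRM (-0.62), where NME1 can share reads with a readthrough gene, while MYC itself was at -0.24 and did not pass. All 42 cytosolic ribosomal protein genes had negative values and 7 fell (median -0.34), among them RPL14 (-0.50) and RPS23 (-0.43). With quantile normalization that median was -0.11 and 0 of the 42 passed, and 0 passed with no filter on low values. Among 27 genes for making nucleotides, 13 fell and 1 rose, with a median of -0.28. These are 48.1% and 3.7%, beside 8.65% and 6.8% of all genes. PFAS was at 8.97 and 8.55 FPKM in the untreated libraries, 8.07 and 8.41 FPKM with compound C and 5.43 and 4.02 FPKM with compound B; this enzyme of purine synthesis fell by 0.78 (SE 0.12, adjusted p = 0.00269), and its pathway partners ADSL, GART, PAICS and ATIC fell by 0.70, 0.50, 0.43 and 0.43. The MYC count was 3 without untreated replicate 1 and 1 without untreated replicate 2, and 3 with quantile normalization. The ribosomal protein count was 31 without compound B replicate 1, 1 without compound B replicate 2, 3 without compound C replicate 1, 2 without compound C replicate 2 and 0 without untreated replicate 2, and the nucleotide count 6 without untreated replicate 1 and 1 without untreated replicate 2, with 7 under quantile normalization.

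**Figure D3:**
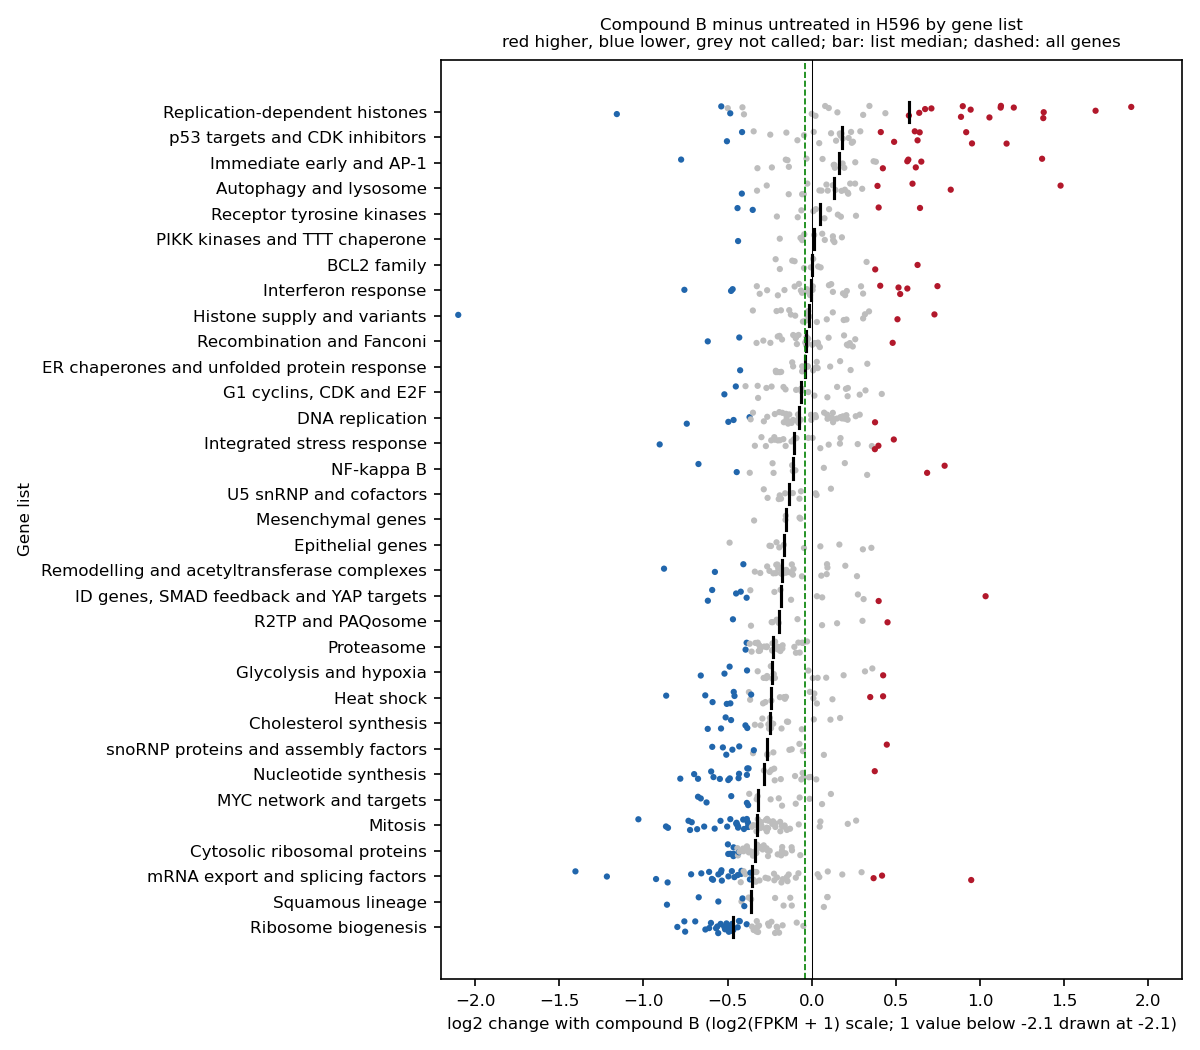
Log2 change with compound B for each tested gene, by list, for the 33 lists with at least 5 tested genes, with red for higher, blue for lower and grey for not passed. The black bar is the list's median and the dashed line that of all genes, -0.04. Histones sit highest at 0.58 and ribosome biogenesis lowest at -0.47; H3F3A, at -4.34, is drawn at the left edge.

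With no filter on low values some lists had fewer calls: heat shock 6, snoRNP proteins 4, MYC targets 3, cholesterol synthesis 3, glycolysis and hypoxia 3, squamous lineage 3, integrated stress response 2, receptor kinases 1, and 0 for the proteasome and for ER chaperones.

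Of 28 p53 targets and CDK inhibitors 8 rose and 2 fell, with a median of 0.18. These are 28.6% and 7.14%, beside 6.8% and 8.65% of all genes. CDKN1A was at 24.9 and 17.2 FPKM in the untreated libraries, 26.4 and 17.0 FPKM with compound C and 46.3 and 36.2 FPKM with compound B. The p21 gene thus had both compound B libraries above the rest, rising by 0.95 (SE 0.11, adjusted p = 0.000573), with 0.04 (95% interval -0.20 to 0.27) for compound C. CDKN2B, which encodes the CDK4 and CDK6 inhibitor p15, was at 4.56 and 3.76 FPKM untreated and 10.3 and 10.6 FPKM with compound B, a log2 change of 1.16 (SE 0.11, adjusted p = 0.000282). GADD45B rose by 0.92 (SE 0.13, adjusted p = 0.00191), PMAIP1 (NOXA) by 0.63, TP53INP1 by 0.64 and CDKN2D by 0.61. GADD45A was at 53.5 and 67.5 FPKM untreated, 46.7 and 49.2 FPKM with compound C and 76.6 and 64.3 FPKM with compound B, and its 0.22 did not pass (adjusted p = 0.285). The p53 targets MDM2, BAX and DDB2 were at 0.25, -0.05 and 0.04 and did not pass, and FAS and AEN fell by 0.41 and 0.50. The count of 10 was 16 without compound B replicate 1, 6 without untreated replicate 1 and 3 without untreated replicate 2.

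Stress genes moved in several directions. Of 22 immediate early and AP-1 genes 6 rose and 1 fell (median 0.16): ATF3, FOSB (0.65), MAFF (0.62) and the phosphatases DUSP1 and DUSP6 were among those that rose, and EGR1, at 23.9 and 7.83 FPKM untreated and 15.2 and 3.63 FPKM with compound B, fell by 0.78 (SE 0.12, adjusted p = 0.00214). For EGR1 replicate 1 was far above replicate 2 in every group, and the groups overlap. Of 25 genes of the integrated stress response 3 rose, CTH, ATF5 and DDIT3, by 0.38 to 0.49, and 1 fell: DDIT4, an inhibitor of mTOR signalling, went from 64.9 and 49.0 FPKM to 35.4 and 24.9 FPKM, a log2 change of -0.90 (SE 0.11, adjusted p = 0.000939). The list's median was -0.11, and it had the opposite sign, 0.01, with quantile normalization. The immediate early count of 7 was 12 without compound B replicate 2, 3 without untreated replicate 1 and 4 without untreated replicate 2. The integrated stress count of 4 was 7 without compound B replicate 1, 7 without compound B replicate 2, 1 without untreated replicate 1 and 1 without untreated replicate 2.

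Of 25 heat shock genes 8 fell and 2 rose, with a median of -0.24. These are 32.0% and 8.0%, beside 8.65% and 6.8% of all genes. HSPA8 was at 1248 and 2103 FPKM in the untreated libraries, 1215 and 1516 FPKM with compound C and 746 and 1060.4 FPKM with compound B; the constitutive HSP70 fell by 0.86 (SE 0.14, adjusted p = 0.00377), and the mitochondrial chaperones HSPD1 and HSPE1 fell by 0.59 and 0.46. The 2 that rose were the near-identical inducible genes HSPA1A (0.35) and HSPA1B (0.42), which can share reads. The count of 10 was 17 without compound B replicate 1, 6 without untreated replicate 1 and 1 without untreated replicate 2. Of 20 genes of ER chaperones and the unfolded protein response 1 fell, CALR (-0.43), a count that was 5 without compound B replicate 1, 2 without compound B replicate 2, 2 without compound C replicate 1, 2 without compound C replicate 2, 0 without untreated replicate 1 and 0 without untreated replicate 2; CALR itself also lost its call without compound B replicate 2. Of 31 proteasome genes 2 fell, PSMD11 and PSMC2, with all 31 values negative (median -0.23), and that count was 13 without compound B replicate 1, 0 without untreated replicate 1 and 0 without untreated replicate 2; with quantile normalization 0 passed and the median was -0.08. Of the proteasome list 6.45% fell and of the ER chaperone list 5.0%, both under the 8.65% of all genes. Of the BCL2 family list, given below, 16.7% rose, beside 6.8% of all genes. Of 24 autophagy and lysosome genes 4 rose and 1 fell (median 0.13). These are 16.7% and 4.17%, beside 6.8% and 8.65% of all genes. Beside TP53INP2, GABARAPL1 was at 7.18 and 3.70 FPKM untreated and 14.5 and 6.79 FPKM with compound B. The log2 change of GABARAPL1 was 0.83 (SE 0.11, adjusted p = 0.00119). The sialidase gene NEU1 rose by 0.60 and the cathepsin gene CTSB by 0.39. That count of 5 was 2 without untreated replicate 1 and 3 without untreated replicate 2. Of 12 BCL2 family genes 2 rose, PMAIP1 and BCL2L1 (0.38), a count that was 4 without compound B replicate 1, 1 without untreated replicate 1 and 0 without untreated replicate 2.

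In metabolism, 26.1% of the cholesterol synthesis list fell and 19.0% of the glycolysis and hypoxia list, beside 8.65% of all genes. Of the glycolysis and hypoxia list 4.76% rose, beside 6.8% of all genes. Of 23 cholesterol synthesis genes 6 fell and 0 rose (median -0.25). INSIG1 was at 16.9 and 12.5 FPKM untreated and 10.9 and 7.61 FPKM with compound B, a log2 change of -0.62 (SE 0.11, adjusted p = 0.00565 in limma). SREBF1 was at -0.51 and HMGCS1 at -0.39. The count was 13 without compound B replicate 1, 0 without untreated replicate 1 and 0 without untreated replicate 2, and 3 with quantile normalization. Of 21 glycolysis and hypoxia genes 4 fell, among them PFKM (-0.52) and HK1 (-0.38), and EGLN3 rose by 0.42, a count of 5 that was 10 without compound B replicate 1, 2 without untreated replicate 1 and 1 without untreated replicate 2.

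Signalling and identity genes gave mixed results. Of 30 interferon response genes 5 rose and 3 fell (median -0.002), which is 16.7% and 10.0% beside 6.8% and 8.65% of all genes. IRF7, IRF1 and MX1 rose by 0.75, 0.57 and 0.52. OASL went from 12.3 and 12.7 FPKM to 8.06 and 6.03 FPKM, a log2 change of -0.76 (SE 0.12, adjusted p = 0.00294). Of 13 NF-kappa B genes IL1A and IL1B rose by 0.79 and 0.69, and the chemokine gene CXCL8 and NFKB1 fell by 0.67 and 0.45. Each pair is 15.4% of that list. Of 15 ID, SMAD feedback and YAP target genes 2 rose and 5 fell, or 13.3% and 33.3%. ID2 was at 12.01 and 12.9 FPKM in the untreated libraries, 13.4 and 12.6 FPKM with compound C and 26.4 and 26.5 FPKM with compound B; this inhibitor of differentiation rose by 1.03 (SE 0.11, adjusted p = 0.000356), while ID4 fell by 0.62 and SMAD6 by 0.59. Of 14 receptor tyrosine kinase genes FGFR1 and AXL rose by 0.64 and 0.40 and EGFR and FGFR2 fell by 0.44 and 0.35. Each pair is 14.3% of that list. The interferon count of 8 was 3 without untreated replicate 1 and 1 without untreated replicate 2, and the NF-kappa B count of 4 was 7 without compound B replicate 1 and 2 without untreated replicate 2. The ID list's count of 7 was 3 without untreated replicate 1 and 1 without untreated replicate 2, and the receptor kinase count of 4 was 1 without untreated replicate 1 and 1 without untreated replicate 2, and 2 with quantile normalization. Of 11 epithelial and 5 mesenchymal genes 0 passed in limma, with 4 and 1 at an unadjusted p under 0.05; E-cadherin (CDH1) was at 0.35 (adjusted p = 0.0545) and N-cadherin (CDH2) at -0.34 (adjusted p = 0.0534). The epithelial 0 became 5 without compound B replicate 1, 2 without compound B replicate 2, 1 without compound C replicate 1, 1 without compound C replicate 2 and 1 without untreated replicate 1, and the mesenchymal 0 became 1 without compound B replicate 1, 1 without compound B replicate 2, 1 without compound C replicate 1 and 1 without compound C replicate 2. With quantile normalization the epithelial median turned from -0.17 to 0.14. SCGB1A1, 1 of 2 tested adenocarcinoma lineage genes, fell by 0.79 (SE 0.13, adjusted p = 0.0033).

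The keratins KRT14, KRT16, KRT6A and KRT17 fell with compound B, and their values with compound C were negative without passing, while KRT5, KRT13 and KRT15 did not pass. Of 15 squamous lineage genes 5 fell and 0 rose (median -0.36, and -0.13 with compound C). KRT14 was at 8.36 and 11.4 FPKM in the untreated libraries, 6.17 and 6.58 FPKM with compound C and 4.96 and 4.92 FPKM with compound B. The log2 change was -0.86 (SE 0.12, adjusted p = 0.00181) with compound B and -0.55 (95% interval -0.82 to -0.28) with compound C, and the direct difference of -0.31 did not pass (adjusted p = 0.128). KRT6A, at 217 and 204 FPKM untreated, 164 and 149 FPKM with compound C and 162 and 126 FPKM with compound B, had -0.55 with compound B and -0.42 with compound C. KRT17 fell by 0.40 with compound B and was at -0.46 with compound C. The count of 5 was 0 without untreated replicate 2, and 3 with quantile normalization (median -0.14). Without compound B replicate 1 the median was -0.17.

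Set directly against compound C at 100 nM and 24 h, compound B called 1235 of 11714 genes (10.5%), 638 higher (5.45%) and 597 lower (5.1%). These comparisons share libraries, so their values are given side by side. Of the 797 genes higher than untreated, 509 also passed as higher than compound C, and of the 1013 lower 529 passed as lower; 0 passed in opposite directions. The ATF3 difference from compound C was 1.22 (SE 0.12, adjusted p = 0.000464) beside 1.37 from untreated cells, that of CDC20 was -1.05 beside -1.03, and that of CDKN1A 0.92 beside 0.95. GADD45A, which did not pass against untreated cells, passed against compound C at 0.54 (adjusted p = 0.0264). In this comparison 16 histone genes were higher and 3 lower, 22 of 55 mitosis genes were lower, 13 of 50 export and splicing genes were lower and 3 higher, and 8 of 28 p53 targets and CDK inhibitors were higher. For compound C against untreated cells the unadjusted 95% interval of a gene reached 0.25 to either side in the median, and values as large as that of KRT14, -0.55, did not pass after adjustment. Without compound B replicate 1 the count against compound C was 3439, without compound B replicate 2 it was 1986, and without compound C replicate 2 it was 689.

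Knockdown of RUVBL1 in H596 gave values from libraries that share no control with compound B. There, cells were transfected with a RUVBL1 siRNA or a non-targeting siRNA for 3 days, with 2 libraries each, and the table was fitted by itself. RUVBL1 was at 112 and 123 FPKM with the non-targeting siRNA and 2.26 and 2.52 FPKM with the RUVBL1 siRNA. The fit with the replicate block called 5574 of 12004 genes (46.4%), 2377 higher (19.8%) and 3197 lower (26.6%). Of 749 genes that rose with compound B and were tested in both tables, 310 (41.4%) were higher and 55 (7.34%) lower with the siRNA. Of 1000 that fell, 601 (60.1%) were lower and 81 (8.1%) higher. Over all 11514 genes in both tests the shares were 19.4% higher and 27.6% lower. Read the other way, the shared calls are 13.9% of the higher and 18.9% of the lower siRNA calls. Across the 11514 genes the log2 changes had a Pearson r of 0.367 and a Spearman rho of 0.393, as a description, since genes are not independent replicates. Time and treatment differ, so sizes are not compared.

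Several genes had a like direction in both. All 55 mitosis genes were lower with the siRNA (median -0.56), CDC20 at -0.82 beside -1.03 with compound B, and PLK1 at -0.87 beside -0.85. DDX39A was at -0.92 beside -1.40, SNRPA at -0.70 beside -1.22 and ATF3 at 0.49 beside 1.37; each passed in both tables. Histone genes did not share this pattern: of 26 in both tests 6 were higher and 6 lower with the siRNA, with a median of 0.05, and HIST1H2BF was at -0.14 and did not pass. HIST1H2AG was lower with the siRNA (-0.25) and rose with compound B. CXCL8 was at 1.65 with the siRNA and -0.67 with compound B, and STEAP1 at 0.41 and -0.96, passing in both. Of 13 NF-kappa B genes 12 were higher with the siRNA and 2 with compound B, and of 30 interferon genes 22 and 5. Without the replicate block the siRNA fit called 0 genes.

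**Figure D4:**
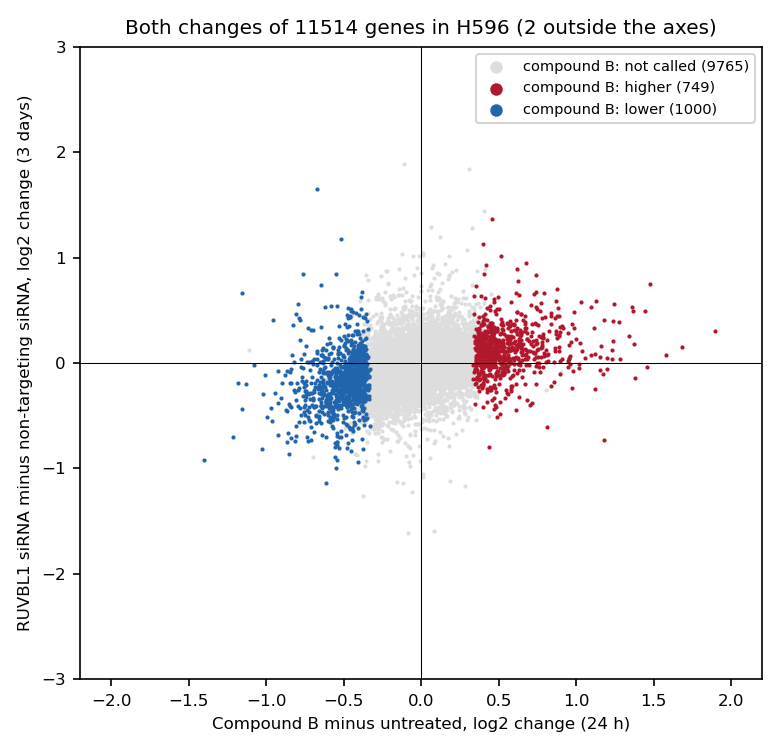
Log2 change with compound B at 24 h (x axis) against that with the RUVBL1 siRNA at 3 days (y axis) for 11514 genes of H596, coloured by the compound B call, with 2 genes outside the axes. Of the blue genes 60.1% passed as lower with the siRNA, and of the red genes 41.4% as higher.

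The response to compound B was compared between H596 and NCI-H2009 (H2009), the other non-small-cell lung cancer line of the series (genotype WT), at the same dose and time, in a fit of 12 libraries with a block within each line. In H2009 that fit called 5062 of the same 11714 genes (43.2%), 2442 higher (20.8%) and 2620 lower (22.4%). Calls within H596 come from the fit of 6 libraries, so the numbers of calls in the lines cannot be set against each other directly. The difference itself, H596 minus H2009, passed for 1397 genes (11.9%), 604 of them more positive (5.16%) and 793 more negative (6.77%) in H596. With the library medians made equal, 1466 passed, and the share more positive in H596 was 55.3% in place of 43.2%. Leaving out any 1 of the 8 untreated and compound B libraries left 346 to 925 genes, with 346 without H596 untreated replicate 1 and 405 without replicate 2. Some CDK inhibitor and stress genes rose less in H596. CDKN1A rose by 0.95 in H596 and 2.83 in H2009, a difference of -1.88 (adjusted p = 0.000524 in limma). ATF3 rose by 1.37 and 2.82, a difference of -1.45 (adjusted p = 0.00192 in limma). For GADD45B, PMAIP1, DDIT3, ATF5 and CTH, which also rose in H596, the difference between the lines did not pass. GADD45A had the widest gap of the named genes, at 0.22 in H596 and 2.76 in H2009. KAT5 was at -0.58 in H596 and -2.04 in H2009, and SNRPA and DDX39B fell less in H596.

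Some genes moved in opposite directions in the lines. SNRPA1 rose by 0.95 in H596 and was at -0.67 in H2009, where it also passed; the difference was 1.61 (SE 0.24, adjusted p = 0.00209). EGR1 fell in H596 and was at 0.49 in H2009, and it passed in both. HIST1H2BF rose by 1.38 in H596 and was at -0.15 in H2009, while HIST1H2BD rose by 1.20 and 2.51. Of the 29 histone genes 2 were more positive and 10 more negative in H596. Of 23 cholesterol synthesis genes 0 rose and 6 fell in H596 in the fit of 6 libraries. In H2009 10 were higher and 2 lower in the fit of 12 libraries. The difference between the lines passed for 7, all more negative in H596. Mitosis genes differed in 4 of 55 (1 more positive and 3 more negative in H596), with medians of -0.33 and -0.38.

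**Figure D5:**
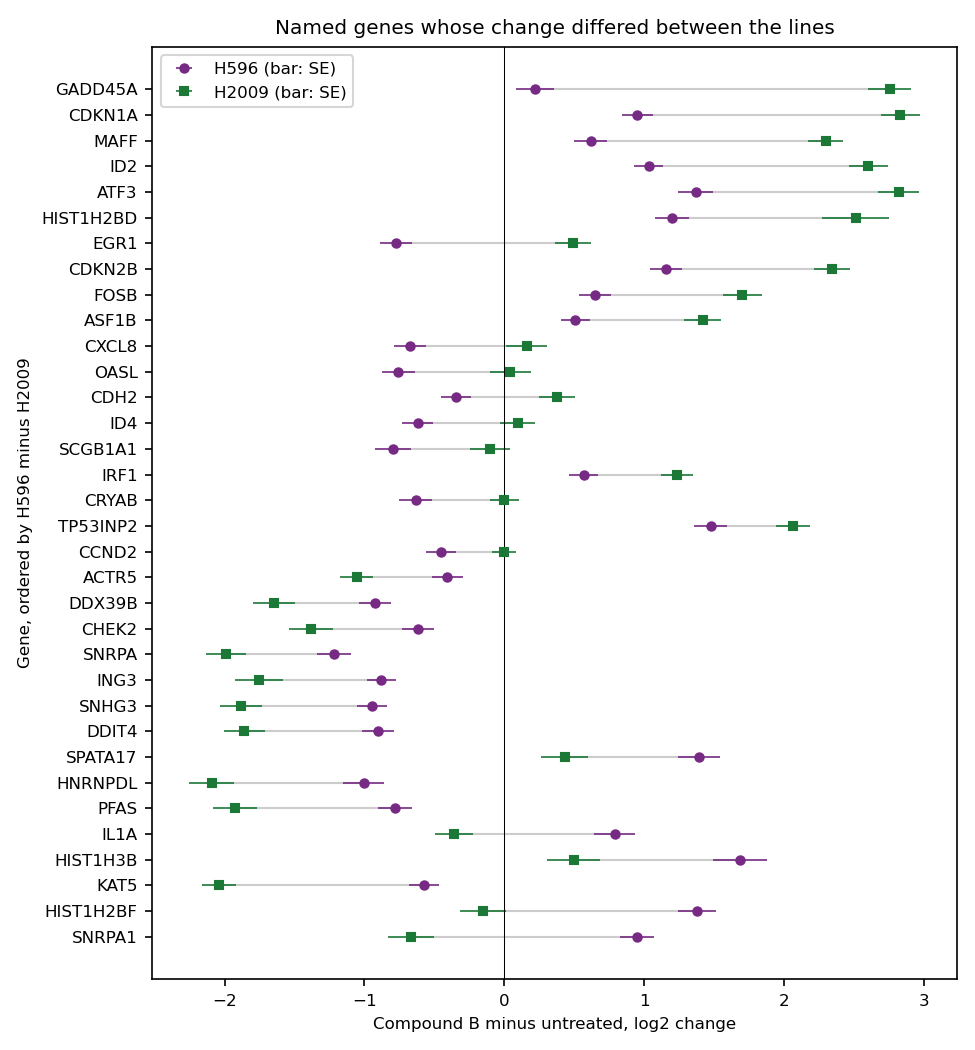
Log2 change with compound B in H596 (purple circles) and H2009 (green squares), with bars of 1 SE on either side, for the 34 named genes whose difference between the lines passed in limma. The SE is from the fit of 6 libraries for H596 and of 12 for H2009. GADD45A and CDKN1A, at the top, moved more in H2009, and SNRPA1 and HIST1H2BF, at the bottom, are at 0.95 and 1.38 in H596 and -0.67 and -0.15 in H2009.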

How the data were processed

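RNA of NCI-H596 cells was sequenced from TruSeq Stranded mRNA libraries, per the labels' protocols; this kit selects poly(A) RNA and keeps strand. The submitters' processing notes name the tools TopHat2 (2.0.12), Cufflinks (2.2.1) and CASAVA (1.8.2) and the build hg19. The authors deposited FPKM per gene; further filters and the use of strand are not given in the sources used here. All 13481 rows exceed 1 FPKM in at least 1 of 12 libraries.

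Here log2(FPKM + 1), a pseudocount of 1, was fitted with limma 3.58.1 in R 4.3.3 (empirical Bayes with a mean-variance trend, Benjamini-Hochberg at 0.05 over 11714 genes). The fit used 6 H596 libraries, 3 group means and the replicate number as a block. Same-numbered libraries deviated together in all 3 pairs of groups (r of 0.801 to 0.867), and the number was taken as a pairing from that correlation, not from the labels. The H2009 contrast used 12 libraries and the siRNA table its own 4. The scripts were tested on simulated data. Genes named are RUVBL1, RUVBL2, CDKN1A, GADD45A, ATF3, GJA1 (at most 0.263 FPKM here, not tested), CDC20 and DDX39A, the 12 highest and 12 lowest called genes whose compound B libraries lie beyond all 4 others and that are never listed at 0, and up to 4 called members of each of 35 lists; others in the text were named after their values were seen. The members and lists were chosen with earlier results of these data known. Alternatives were another pseudocount, filters, scalings, library sets and leaving out each library. Promoter windows are RefSeq's (GRCh38.p14, 35116 windows of 27305 genes) and share no coordinates with the hg19 values. Whole-genome sequence, read counts and the other libraries of the series were not used here.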

Additional observations from a re-analysis of the deposited data

Results flagged for a closer look

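The 34 named genes below were singled out because their compound B effect differed between H596 and H2009 in the limma fit of 12 libraries. Each value is H596 minus H2009 on the log2 scale. Whether a gene rose, fell or did not pass within a line is from the fit of 6 libraries for H596 and of 12 for H2009. No explanation of a difference was tested.

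Genes that rose less in H596 than in H2009 were CDKN1A (-1.88), MAFF (-1.68), ID2 (-1.57), ATF3 (-1.45), HIST1H2BD (-1.31), CDKN2B (-1.19), FOSB (-1.05), the histone chaperone ASF1B (-0.91), IRF1 (-0.67) and TP53INP2 (-0.59). GADD45A did not pass in H596 and rose in H2009 (-2.54). EGR1 fell in H596 and rose in H2009 (-1.27). The difference was -0.83 for CXCL8, -0.80 for OASL, -0.71 for ID4, -0.69 for SCGB1A1, -0.63 for CRYAB and -0.45 for CCND2, which fell in H596 and did not pass in H2009. N-cadherin, CDH2, did not pass in H596 and was higher in H2009 (-0.72).

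Genes that fell less in H596 were ACTR5 (0.65), DDX39B (0.72), CHEK2 (0.77), SNRPA (0.77), ING3 (0.87), SNHG3 (0.94), DDIT4 (0.95), HNRNPDL (1.09), PFAS (1.14) and KAT5 (1.47). SPATA17 (0.96), IL1A (1.15), HIST1H3B (1.19) and HIST1H2BF (1.53) rose in H596 and did not pass in H2009. SNRPA1 rose in H596 and fell in H2009 (1.61).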

How the results depend on the processing

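Read depth is unknown, no group has over 2 libraries, and 2 residual degrees of freedom support the fit. Without the replicate block limma called 0 genes for compound B against untreated (608 at an unadjusted p under 0.05), 0 against compound C (510), 0 for the difference between lines (832) and 0 for the siRNA (137); the numbers pair the libraries by their correlations only, since the labels do not say what they mark. With quantile normalization and no replicate block, chosen after seeing the data, compound B gave 0 calls (650 at an unadjusted p under 0.05). A fit of all 12 libraries with a shared block gave 314 and 209 calls against untreated and compound C. Against untreated, that fit called 6 mitosis and 2 ribosome biogenesis genes lower. It called 0 genes on the snoRNP, MYC, heat shock and cholesterol lists. A minimum mean of 5 FPKM gave 803 against compound C and 881 between lines. Compound C against untreated gave 113 calls when only its 4 libraries were fitted. With 1 library left out, calls ranged from 328 to 3938 for compound B, 11 to 116 for compound C, 689 to 3439 for compound B against compound C, and 346 to 925 between lines; the causes were not tested. For the siRNA no library could be left out under the block, which leaves 0 residual degrees of freedom.

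Compound B gave 1254 to 2399 calls under the other alternatives (another pseudocount, filter or scaling, no trend, only 4 libraries, or no genes listed at 0), all within 1.5 times of 1810. The share of higher calls was 44.0%, 51.7% with quantile normalization and 31.6% with a mean of at least 5 FPKM. No gene named by rule changed sign while passing under any of these settings. Of 118 genes named by rule that passed, 41 passed in all 13 fits that keep the block and the filter, and 50 passed without untreated replicate 2.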
